A study of Mus musculus with 21 samples.

Results

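Hematopoietic stem cells (HSCs) from mice that had received the third of 3 injections of 5-fluorouracil (5-FU) were compared with HSCs from mice that had received the third of 3 injections of phosphate-buffered saline (PBS). The comparison used 6 of the 21 RNA-seq libraries of the series, 3 from the 5-FU group and 3 from the PBS group, chosen by their labels alone. Wild-type C57BL/6 mice aged 10 weeks received 5-FU intraperitoneally at 150 mg/kg, or PBS, 3 times at intervals of 21 days. HSCs were isolated on day 6, which is 5 days after the last injection, and 3000 to 3500 sorted cells went into each library. The sort took bone marrow cells that were negative for lineage markers and CD48 and positive for Sca-1, c-Kit and CD150. In its definition of HSCs from C57BL/6 mice, the paper also asks that they be negative for Flt3. The 3 libraries of a group came from independent experiments. For mice given 5-FU, the antibody to Mac-1 was left out of the lineage mixture and the c-Kit gate was widened to cells with dim c-Kit, so the wider gate and the treatment cannot be told apart. The series also holds HSCs taken on day 6 after a single injection of 5-FU or PBS and on day 21 after 1 or 3 injections of 5-FU. It further holds HSCs from old untreated mice, aged 2 years. Of the 21000 genes in the table, 12729 passed an expression filter in these 6 libraries and were tested.

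5-FU is a pyrimidine analog. Its metabolites block thymidylate synthase and enter RNA and DNA, and the drug kills dividing blood progenitors while sparing HSCs, which are mostly in G0. The surviving HSCs then leave quiescence and divide before they return to rest. Growth and division need E2F factors to switch on genes for DNA replication, followed by B-MYB and FOXM1, which act on genes for mitosis, while the DREAM complex holds many of these genes down in resting cells. Growing cells also need more nucleotides, more ATP and more protein. Repeated injections put HSCs through this cycle again and again, and the comparison asks what the transcriptome of HSCs looked like in the active phase after the third round.

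The libraries held 27023725 to 38649033 counts. The first principal component carried 42.8% of the variance and separated the groups, while PBS replicate 2 stood apart from the other 5 libraries on the second (17.2%). Markers of the sort were present in all 6 libraries. Slamf1, which encodes CD150, was at 1621, 1707 and 1457 normalized read counts in the 5-FU libraries and at 1526, 1264 and 1199 in the PBS libraries. Here and below, a normalized read count is the count divided by a size factor that makes the 6 libraries comparable, and values are given in the order of replicates 1, 2 and 3. In bulk libraries, fewer cells with a transcript and less transcript per cell cannot be told apart.

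Of the 12729 genes tested, 2310 (18.1%) differed between the groups at an adjusted p under 0.05 by edgeR's quasi-likelihood test, which is what "called", "rose" and "fell" mean below. A total of 1253 genes (9.84%) were higher after 5-FU and 1057 (8.3%) were lower. Rises were mostly modest, with a median log2 fold change of 0.54, and falls were larger, with a median of −0.68. At least 2-fold, 197 genes rose and 307 fell, and at least 4-fold, 31 rose and 81 fell. The 5-FU and PBS libraries did not overlap for 5075 genes (39.9% of those tested), 2646 higher and 2429 lower. The median log2 fold change over all genes tested was −0.01, and it shifted to −0.11 with library size alone in place of the normalization factors, which turned the share of calls that were higher from 54.2% into 35.6%. With any single library left out, between 1231 genes (without 5-FU replicate 3) and 1582 genes (without 5-FU replicate 2) were called. The numbers without 5-FU replicate 1 and without PBS replicates 1, 2 and 3 were 1500, 1413, 1379 and 1399.

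**Figure D1:**
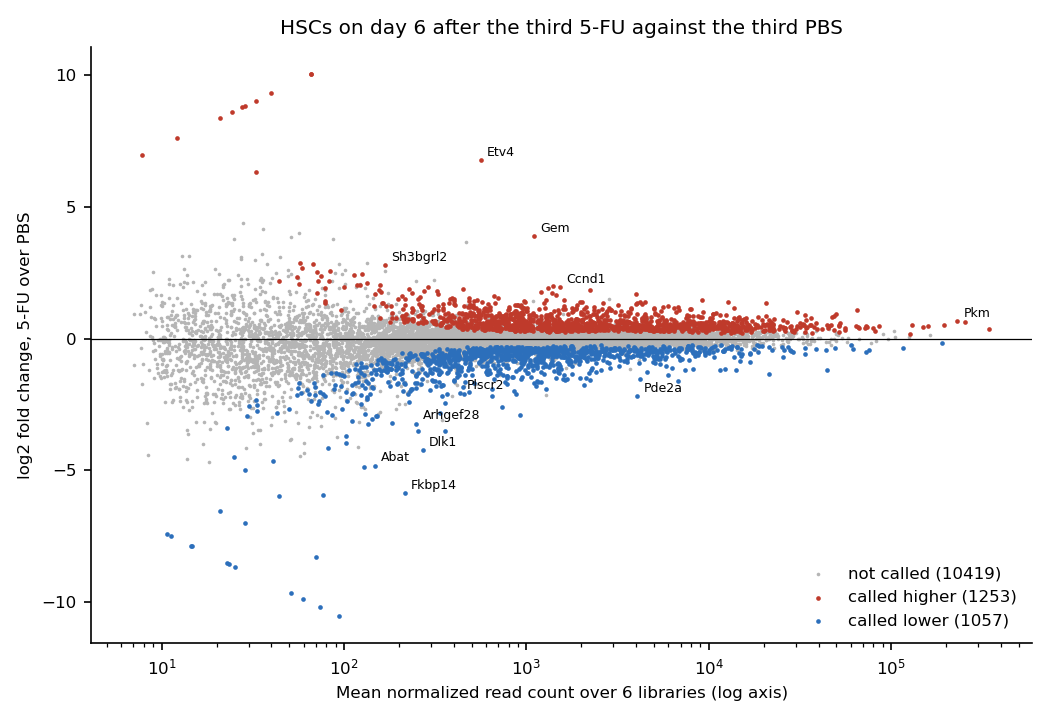
Each point is 1 of the 12729 genes tested, with its mean normalized read count over the 6 libraries on a log axis and the log2 fold change of 5-FU over PBS. Of these, 1253 were called higher (red), 1057 called lower (blue) and 10419 not called (gray), and the points beyond a log2 fold change of 7 are genes with no count in any library of one group.

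Genes of mitosis and of S phase held the largest shares of called genes among the lists examined. The spindle and chromosome segregation machinery rose almost as a whole, with 54 of the 55 tested genes of G2 and mitosis called higher and none lower, at a median log2 fold change of 0.91. Much of the replication machinery rose as well, with 32 of 46 S phase genes called higher and none lower, at a median of 0.60. In all 55 mitotic genes every 5-FU library lay above every PBS library, and the exception to the calls was Cks2 (log2 fold change 0.29 ± 0.10 (SE), adjusted p = 0.106). Leaving out single libraries left 43 to 51 mitotic genes and 21 to 26 S phase genes called.

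Among replication genes, Tipin, a partner of TIMELESS that steadies the replication fork, was at 16406, 15500.3 and 16742 normalized read counts after 5-FU and at 8828, 8455 and 8609.8 after PBS. The lowest 5-FU library lay well above the highest PBS library, a log2 fold change of 0.91 ± 0.06 (adjusted p = 0.00125). Gins1, a subunit of the CMG helicase, rose by 1.41 ± 0.11 on the log2 scale (adjusted p = 0.00156). Nasp, a histone chaperone that supplies histone H3 and H4, was at 5711, 5332 and 6459 after 5-FU and at 2377, 2249.5 and 2171 after PBS (log2 fold change 1.36 ± 0.10, adjusted p = 0.00125). Mcm5 and Mcm6, subunits of the MCM helicase picked here after their values were seen to show their promoters, rose by 0.98 ± 0.10 and 0.70 ± 0.09 (adjusted p = 0.00277 and 0.00472).

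Among mitotic genes, Mybl2, which encodes B-MYB, was at 1231, 1244 and 1403 normalized read counts after 5-FU and at 534, 537 and 564 after PBS (log2 fold change 1.25 ± 0.09, adjusted p = 0.00125). Ncapg, a condensin subunit, rose by 1.29 ± 0.09 (adjusted p = 0.00126), and Ska1, which ties kinetochores to microtubules, by 1.46 ± 0.10 (adjusted p = 0.00125). Replicates were tight in all 3, and neither group came near the other. Further mitotic genes, named after their values were seen, included the centromeric histone Cenpa (log2 fold change 1.48 ± 0.11), the mitotic kinesin Kif2c (1.84 ± 0.14), the cytokinesis factor Ect2 (1.68 ± 0.20) and the kinase Plk1 (1.28 ± 0.10), with adjusted p of 0.00139, 0.00137, 0.00357 and 0.00139. Kif2c had the largest log2 fold change of the 55. Mki67, the gene of the Ki67 proliferation antigen, was at 3558, 3038 and 4171 after 5-FU and at 2185, 1345 and 2026 after PBS (log2 fold change 0.96 ± 0.20, adjusted p = 0.0199), and its call was lost without 5-FU replicate 3 (adjusted p = 0.0658).

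The DNA in front of these genes is shown because the 2 lists differed in the motifs next to their start sites. Promoters came from RefSeq on GRCm38.p6, and 31 of the 46 S phase genes and 42 of the 55 mitotic genes had a single window of 250 bases before and 50 bases after the start. The windows were searched on both strands for E2F sites (TTTCGCGC, TTTGGCGC or TTTCCCGC), for the cell cycle homology region CHR bound by DREAM and B-MYB complexes (TTTGAA) and for the CCAAT box of NF-Y (CCAAT). An E2F match was present in 14 of 31 S phase windows (45.2%) and in 4 of 42 mitotic windows (9.52%), against 3.92% of the windows of tested genes and 1.9% of all 22862 windows. A CHR match was present in 29 of 42 mitotic windows (69%) and in 9.68% of S phase windows, against 12.4% of tested genes and 18.5% of all windows. CCAAT was present in 71.4% of mitotic and 67.7% of S phase windows, against 40.3% of tested genes and 38.2% of all windows. A match is a description of the letters and was not tested as a site. The 200 bases before the start of 2 S phase genes (Mcm5, chr8:75109309-75109508, plus strand, and Mcm6, chr1:128359706-128359905, minus strand) and 2 mitotic genes (Cdk1, chr10:69352913-69353112, minus strand, and Top2a, chr11:99024190-99024389, minus strand) follow 5′ to 3′ on the gene's strand, with every match on either strand in capitals. E2F matches on the 2 strands overlap in Mcm5 and in the first E2F block of Mcm6.
Mcm5: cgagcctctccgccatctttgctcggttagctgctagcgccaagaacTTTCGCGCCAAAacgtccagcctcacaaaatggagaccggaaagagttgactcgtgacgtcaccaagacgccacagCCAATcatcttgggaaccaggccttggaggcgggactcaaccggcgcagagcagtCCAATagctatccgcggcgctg
Mcm6: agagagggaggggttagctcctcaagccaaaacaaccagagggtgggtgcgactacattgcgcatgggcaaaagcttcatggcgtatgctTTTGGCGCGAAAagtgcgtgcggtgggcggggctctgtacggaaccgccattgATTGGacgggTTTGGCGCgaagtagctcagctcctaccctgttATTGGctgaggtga
Cdk1: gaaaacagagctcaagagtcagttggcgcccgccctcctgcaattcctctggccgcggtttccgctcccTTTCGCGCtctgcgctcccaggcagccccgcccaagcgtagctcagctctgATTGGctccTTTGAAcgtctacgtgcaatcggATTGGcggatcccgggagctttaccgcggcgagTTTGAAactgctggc
Top2a: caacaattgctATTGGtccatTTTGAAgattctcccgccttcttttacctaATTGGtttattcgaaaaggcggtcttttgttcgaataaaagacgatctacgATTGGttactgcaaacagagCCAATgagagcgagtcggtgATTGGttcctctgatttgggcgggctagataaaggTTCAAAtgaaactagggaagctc

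The levels behind these sequences moved together. Top2a, the topoisomerase that untangles sister chromatids, was at 3275, 3177 and 3417 normalized read counts after 5-FU and at 2076, 1804 and 2223 after PBS (log2 fold change 0.69 ± 0.10, adjusted p = 0.00586). Cdk1, the kinase that drives entry into mitosis, rose by 0.55 ± 0.09 (adjusted p = 0.00953). Both lay below the median of the mitotic list.

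Of the 31 cyclins, cyclin-dependent kinases (CDKs), inhibitors and E2F or pocket proteins tested, 10 rose and 3 fell, at a median log2 fold change of 0.28, and 9 or 10 rises and 0 to 2 falls were called with any single library left out. Ccnd1, which encodes cyclin D1, was at 1934, 2402 and 2999.9 after 5-FU and at 763, 537 and 569.9 after PBS (log2 fold change 1.97 ± 0.20, adjusted p = 0.00265). Its fellow D-type cyclins did not pass, with log2 fold changes of −0.09 ± 0.08 for Ccnd2 (adjusted p = 0.467) and 0.16 ± 0.09 for Ccnd3 (adjusted p = 0.28). Cdk4 rose by 0.47 ± 0.07 (adjusted p = 0.00583), whereas Cdk6, at 4070.2, 3284 and 3832 against 3735, 3598 and 4115, overlapped between the groups (log2 fold change −0.03 ± 0.10, adjusted p = 0.852). Skp2, which targets p27 for degradation, rose by 0.93 ± 0.08 (adjusted p = 0.00225). Ccne1 and Ccne2 (cyclins E1 and E2), E2f1 and the repressor E2f7, named after their values were seen, rose by 1.58 ± 0.20, 1.35 ± 0.14, 0.82 ± 0.11 and 1.48 ± 0.20 on the log2 scale. Among the inhibitors, Cdkn1c (p57), which keeps HSCs in G0, was at 1204, 1884 and 1926 after 5-FU and at 2976, 2948 and 2632 after PBS (log2 fold change −0.77 ± 0.18, adjusted p = 0.0277), with its call lost without 5-FU replicate 2 or PBS replicate 1, 2 or 3 (adjusted p up to 0.0757). Cdkn1a (p21) stood at 236, 445 and 391 against 204, 130.4 and 212 (log2 fold change 0.97 ± 0.29, adjusted p = 0.059) and Cdkn1b (p27) had a log2 fold change of −0.20 ± 0.18 (adjusted p = 0.469). Reads of Ccnd1, Ccne2, Cdk4 and Cdkn1c may include reads of antisense genes that overlap their exons, because the strand setting of the counting is not given in the sources used here. The same limit holds for other genes named below. Among them are Gart, Txnip, Cnn3 and Selp, with 19.7%, 19.4%, 17.7% and 14.1% of exonic bases overlapped on the other strand. Pkm shares 15.3% of its exonic bases with Gm49759 on the same strand.

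**Figure D2:**
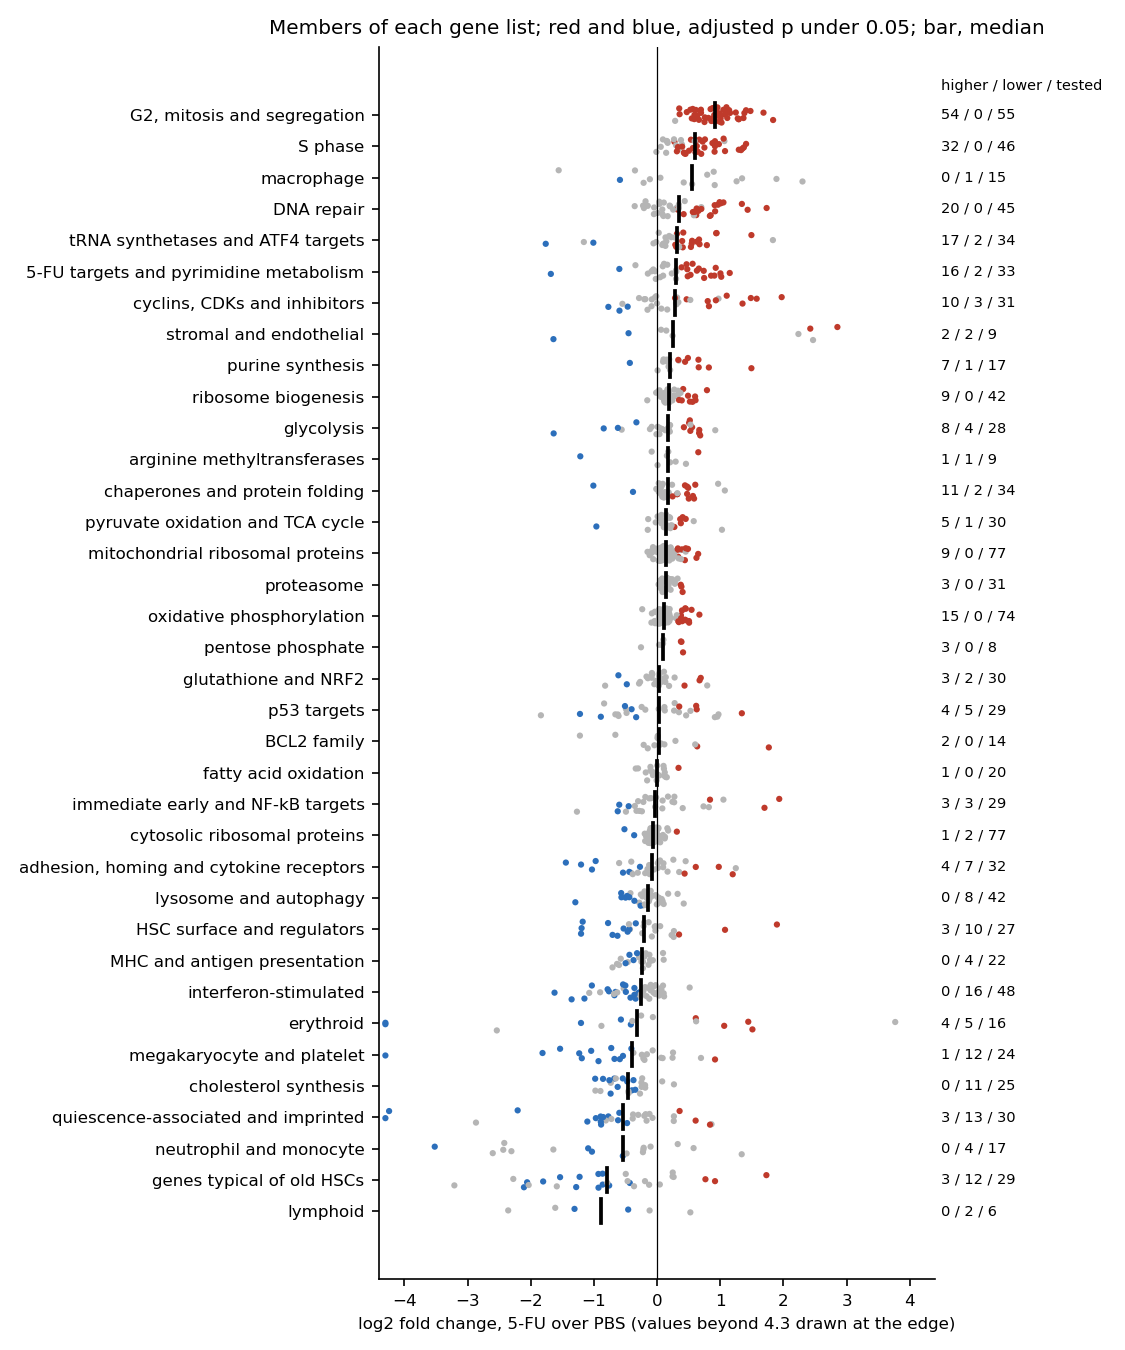
Each point is a tested member of a gene list, placed at its log2 fold change of 5-FU over PBS, in red where called higher, blue where called lower and gray where not called, with a bar at the list's median and the counts at the right. G2 and mitosis (54 of 55 higher) and S phase (32 of 46 higher) stand at the top, and genes typical of old HSCs (12 of 29 lower) and quiescence-associated and imprinted genes (13 of 30 lower) near the bottom.

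Thymidylate synthase and part of the enzymes around it rose. Of 33 tested genes of pyrimidine metabolism, 16 were called higher, 2 lower and 15 were not called, at a median log2 fold change of 0.30. Tyms, the thymidylate synthase that 5-FU inhibits, was at 978, 942 and 889 normalized read counts after 5-FU and at 698, 627 and 691 after PBS (log2 fold change 0.48 ± 0.09, adjusted p = 0.0122). Tk1, which salvages thymidine in S phase, doubled, at 4099, 4171 and 4036 against 2319, 1779 and 2044 (fold change 2, log2 fold change 1.00 ± 0.11, adjusted p = 0.00283). Umps, which converts 5-FU into its nucleotide, rose by 0.47 ± 0.08 (adjusted p = 0.0118), and so did the ribonucleotide reductase subunit Rrm2 (0.85 ± 0.08, adjusted p = 0.00219) and the nucleoside diphosphate kinase Nme1 (0.74 ± 0.07, adjusted p = 0.00259). Dut, Ung and Cad, named after their values were seen, rose by 0.74 ± 0.08, 0.93 ± 0.16 and 1.15 ± 0.16. They encode the dUTPase and the uracil glycosylase that keep uracil out of DNA, and the enzyme that opens de novo pyrimidine synthesis.

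The 2 genes of that list that fell were Upp1 and Tk2. Upp1, the uridine phosphorylase that can also activate 5-FU, was at 429.5, 644 and 490.5 after 5-FU and at 2172, 1225 and 1617 after PBS (log2 fold change −1.68 ± 0.24, adjusted p = 0.00586). Every 5-FU library lay below every PBS library. The mitochondrial thymidine kinase Tk2 fell by 0.60 on the log2 scale (SE 0.11, adjusted p = 0.0123). Dpyd, whose product degrades 5-FU, had no count in any of the 6 libraries, which allows up to 3 counts in each. Purine synthesis showed 7 of 17 genes higher and 1 lower at a median of 0.21, led by the one-carbon enzyme Mthfd1l (0.82 ± 0.08, adjusted p = 0.00265) and by Gart (0.65 ± 0.10, adjusted p = 0.00738). Here and below, the genes that lead a list are its called genes with the smallest p and at least 100 normalized read counts. The mitochondrial folate enzyme Mthfd2, named after its values were seen, rose by 1.49 ± 0.23 (adjusted p = 0.00785).

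Of 45 DNA repair genes, 20 were called higher and none lower, at a median of 0.34. The number called ranged from 10 to 14 with any single library left out. Rpa1, which coats single-stranded DNA, was at 7815, 8006 and 9076 after 5-FU and at 5854, 5382 and 5580.1 after PBS (log2 fold change 0.57 ± 0.08, adjusted p = 0.00664). Brca1, named after its values were seen, rose by 1.01 ± 0.18 (adjusted p = 0.0125). Many of these genes are also transcribed with S phase.

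The p53 targets did not move in one direction. Of 29 tested, 4 rose and 5 fell, which is 31.0% called against 18.1% of all genes tested. The median of 0.03 changed sign (−0.07) with library size alone. With any single library left out, 2 to 4 rises and 1 to 3 falls were called. Those that rose were led by Gtse1 (log2 fold change 1.34 ± 0.16, adjusted p = 0.00384) and Psrc1 (0.62 ± 0.12, adjusted p = 0.0163, lost without 5-FU replicate 2 at adjusted p = 0.0507), both microtubule-associated genes of G2 and mitosis. Plk2, a stress-induced kinase, was at 164, 125 and 134 after 5-FU and at 271, 392 and 325 after PBS (log2 fold change −1.22 ± 0.20, adjusted p = 0.009). Mdm2 and Bax, the classical targets for feedback and for death, named after their values were seen, had log2 fold changes of −0.19 ± 0.13 (adjusted p = 0.348) and 0.12 ± 0.10 (adjusted p = 0.474), with overlapping groups. Of 14 BCL2 family genes, 14.3% were called higher, near the 9.84% over all genes tested. In all, 2 rose and none fell. They were the pro-survival Bcl2l1 (BCL-xL), at 8714, 9176 and 10720.3 against 6214, 6078 and 6138 (0.63 ± 0.09, adjusted p = 0.0062), and Bok, a BAX-like family member (1.77 ± 0.27, adjusted p = 0.00777).

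Glycolytic genes went both ways. Of 28 tested glycolytic genes, 8 rose and 4 fell, at a median of 0.18. Pkm, the pyruvate kinase gene and the highest of these in counts, was at 265146, 266790 and 318408 after 5-FU and at 177959, 177101 and 180213 after PBS (log2 fold change 0.67 ± 0.08, adjusted p = 0.00345). Ldha, for the lactate dehydrogenase subunit that favors lactate, was at 44041, 42103 and 41609 against 29790.5, 30195 and 29211 (0.52 ± 0.06, adjusted p = 0.00282). Gapdh and Eno1, named after their values were seen, rose by 0.53 ± 0.07 and 0.51 ± 0.07. With any single library left out, 6 to 8 glycolytic genes were called higher and 1 to 3 lower. Isoforms moved apart. Aldoc fell by 1.64 on the log2 scale (SE 0.25, adjusted p = 0.00752), and Ldhb, at 5075, 5768 and 3945 against 7513, 8191 and 7024, had a log2 fold change of −0.62 ± 0.14 (adjusted p = 0.0263, and 0.0535 to 0.0759 without 5-FU replicate 1 or PBS replicate 1, 2 or 3).

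Phosphofructokinase sets the pace of glycolysis, and the PFKFB enzymes make and remove its activator fructose 2,6-bisphosphate. Pfkfb3, for the isozyme that mostly makes it, did not differ, at 5034, 4579 and 5216 after 5-FU and at 4821, 4888 and 5222 after PBS (log2 fold change −0.01 ± 0.08, adjusted p = 0.944). The groups overlapped. The log2 fold changes of Pfkfb1, Pfkfb2 and Pfkfb4 were 0.92 ± 0.42, −0.56 ± 0.18 and 0.08 ± 0.13 (adjusted p = 0.176, 0.0767 and 0.708). Of the phosphofructokinase subunits, Pfkp had a log2 fold change of 0.42 ± 0.10 (adjusted p = 0.026, lost without 5-FU replicate 2 or 3 or PBS replicate 1 or 3 at adjusted p up to 0.0780), and Pfkl and Pfkm of 0.21 ± 0.07 and −0.11 ± 0.17 (adjusted p = 0.0753 and 0.695). Prmt1, for the arginine methyltransferase that modifies PFKFB3, rose in each library, at 5801, 5900.2 and 5900.1 against 3886, 3731 and 3583 (log2 fold change 0.65 ± 0.07, adjusted p = 0.00282). Of the 9 arginine methyltransferase genes tested, it was the one called higher, and Prmt2 was the one called lower (−1.22 ± 0.23, adjusted p = 0.0145, and 0.0544 without 5-FU replicate 3). A count of 1 of 9 in each direction is near the shares over all genes tested, 9.84% higher and 8.3% lower.

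Most mitochondrial genes did not pass the test. Of 74 oxidative phosphorylation genes, 15 were called higher, none lower and 59 were not called, at a median of 0.11 that dropped to 0.01 with library size alone, where 8 were called, and 8 to 12 were called with any single library left out. The ATP synthase genes Atp5g3 (0.67 ± 0.06, adjusted p = 0.00225) and Atp5d (0.50 ± 0.07, adjusted p = 0.00616) had the smallest p. In the TCA cycle and pyruvate oxidation, 5 of 30 rose, 2 to 4 with any single library left out, and 1 fell. The share called, 20%, was near the 18.1% of all genes tested. The citrate synthase gene Cs rose by 0.40 ± 0.07 (adjusted p = 0.0105) and Sdhb, a subunit of succinate dehydrogenase, by 0.38 ± 0.07 (adjusted p = 0.0136). Pdk2, the kinase that shuts pyruvate dehydrogenase, was at 1094, 986 and 908 after 5-FU and at 1945, 1946 and 1925 after PBS (−0.96 ± 0.09, adjusted p = 0.00236). Fatty acid oxidation had 1 of 20 genes called, 0 with any single library left out, and a median near 0. The pentose phosphate pathway had 3 of 8 called, 0 or 1 with any single library left out and 0 with library size alone.

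Lists of the growth machinery differed in how many of their genes were called. Of 34 aminoacyl-tRNA synthetases and ATF4 targets, 17 rose and 2 fell, at a median of 0.31, with the amino acid transporter Slc7a5 (0.79 ± 0.09, adjusted p = 0.00322) and the serine synthesis enzyme Psat1 (0.94 ± 0.11, adjusted p = 0.00322) leading the rises. The 2 that fell, Trib3 (−1.76 ± 0.30, adjusted p = 0.0101) and Ddit3, which encodes CHOP (549, 493 and 348 against 872, 1026 and 896, −1.01 ± 0.17, adjusted p = 0.0102), belong to the stress arm of that response. With any single library left out, 10 to 13 genes of the list were called higher. Ribosome biogenesis had 9 of 42 genes higher (5 to 9 with any single library left out) at a median of 0.18, led by nucleophosmin Npm1 (0.60 ± 0.08, adjusted p = 0.00484) and Utp20 (0.79 ± 0.11, adjusted p = 0.00642). Chaperones had 11 of 34 higher (5 to 9 with any single library left out) and 2 lower, led by Hspd1 (0.59 ± 0.07, adjusted p = 0.00389) and the chaperonin Tcp1 (0.50 ± 0.07, adjusted p = 0.00544). The proteins of the cytosolic ribosome stood apart, with 1 of 77 higher, 2 lower and a median of −0.07, and Rps27 (−0.52 ± 0.08, adjusted p = 0.00845) and Rps19 (−0.36 ± 0.07, adjusted p = 0.014) were those that fell. Mitochondrial ribosomal proteins had 9 of 77 higher, led by Mrpl42 (0.62 ± 0.09, adjusted p = 0.00661), and 1 to 6 with any single library left out. The proteasome had 3 of 31 higher, led by Psmc2 (0.40 ± 0.07, adjusted p = 0.012), and 1 or 2 with any single library left out. The shares of the mitochondrial ribosome (11.7%) and the proteasome (9.68%) were near the 9.84% called higher over all genes tested.

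Sterol genes were called in 1 direction. Of 25 cholesterol synthesis and uptake genes, 11 fell and none rose, at a median of −0.45, and 6 to 9 were called with any single library left out. Insig1, a sterol sensor of the endoplasmic reticulum, was at 648, 686 and 512 after 5-FU and at 1052, 1213 and 1073 after PBS (log2 fold change −0.86 ± 0.13, adjusted p = 0.00701). Lysosome and autophagy genes had 8 of 42 lower and none higher, at a median of −0.15. They included Cd63, a tetraspanin of lysosomes and granules (−0.56 ± 0.08, adjusted p = 0.00544), and the cathepsin Ctsf (−1.29 ± 0.20, adjusted p = 0.00775), and 3 to 5 were called with any single library left out. Among 30 glutathione and NRF2 genes, 3 rose, led by the peroxiredoxin Prdx4 (0.69 ± 0.10) and the cystine transporter Slc7a11 (0.67 ± 0.12), and 2 fell, with Gstm1 (−0.48 ± 0.08, adjusted p = 0.01) the one with the smaller p. Both counts were near the shares over all genes tested, 9.84% higher and 8.3% lower. Gstt1, a glutathione transferase outside that list, fell from 1129, 1033 and 1079 to 428, 387 and 421 (−1.39 ± 0.09, adjusted p = 0.00125).

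Etv4 had the largest rise among the called genes that met the rule for large changes. Etv4 (chr11:101769742-101785371, minus strand), an ETS factor downstream of ERK, was at 796, 843 and 1695 normalized read counts after 5-FU and at 0, 0.988 and 30.6 after PBS (log2 fold change 6.80 ± 0.85, adjusted p = 0.00422). The groups were far apart, and the size of the change rested on PBS replicate 3, without which the PBS group held a single count and the fitted log2 fold change was 10.80. Gem (chr4:11704457-11714752, plus strand), a small GTPase that binds calcium channels, was at 1738, 2249 and 2171 against 139.9, 131 and 142 (3.90 ± 0.13, adjusted p = 0.000113), the smallest p of the comparison. Spry4, a feedback inhibitor of receptor tyrosine kinase signaling, was at 169, 241 and 239 against 43.9, 74.1 and 32.9 (2.10 ± 0.37, adjusted p = 0.011). Id1, an inhibitor of basic helix-loop-helix factors, was at 436, 473 and 466 against 126, 58.3 and 173 (1.95 ± 0.35, adjusted p = 0.0122).

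Arap3, a GTPase-activating protein, was at 2134, 1725 and 2367 against 544, 533 and 549.5 (1.94 ± 0.13, adjusted p = 0.00125). Gimap4, a GTPase of lymphoid cells, was at 2127, 2184 and 2405 against 569.7, 697 and 426 (1.99 ± 0.17, adjusted p = 0.00215). For both genes no 5-FU library came within reach of the PBS libraries. Lower in counts were Sh3bgrl2 (2.78 ± 0.48, adjusted p = 0.0102), the calponin Cnn3 (2.05 ± 0.33, adjusted p = 0.00827), the germ cell helicase Ddx4 (2.04 ± 0.33, adjusted p = 0.0086) and Sparc, a matrix glycoprotein (184, 204 and 188 against 28.6, 36.6 and 41.9, 2.42 ± 0.28, adjusted p = 0.00357). In the fit over all 21 libraries neither Ddx4 nor Sparc was called (adjusted p = 0.0668 and 0.133). Tyro3, a receptor tyrosine kinase, and Gask1b also met the rule (2.05 ± 0.48 and 2.46 ± 0.59, adjusted p = 0.0286 and 0.0298). The call of Tyro3 was lost without any 5-FU library or without PBS replicate 3 (adjusted p up to 0.0912), and that of Gask1b without any 5-FU library or without PBS replicate 1 (adjusted p up to 0.103), while its log2 fold change was 3.10 without PBS replicate 3.

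Genes with the largest falls were low after 5-FU, the 6 described first lying between 5.34 and 58.0 normalized read counts there and between 136 and 877 after PBS. Fkbp14 (chr6:54577604-54597308, minus strand), a prolyl isomerase of the endoplasmic reticulum, was at 9.65, 6.21 and 5.34 normalized read counts after 5-FU and at 498, 322 and 448 after PBS (log2 fold change −5.88 ± 0.32, adjusted p = 0.00125). Dlk1, an imprinted Notch-like ligand, was at 17.4, 45.5 and 18.7 against 301, 359.6 and 877 (−4.24 ± 0.57, adjusted p = 0.00533, and −3.60 without PBS replicate 3). The groups were separate in both. Meis3, a homeobox gene related to Meis1, was at 42.5, 49.7 and 30.3 against 453, 380.4 and 564 (−3.51 ± 0.25, adjusted p = 0.00126). Arhgef28, a guanine nucleotide exchange factor, was at 36.7, 58.0 and 49.0 against 501, 378 and 471 (−3.23 ± 0.22, adjusted p = 0.00125), Efnb2, the ligand ephrin B2, at 15.4, 22.8 and 5.34 against 243, 136 and 194 (−3.72 ± 0.56, adjusted p = 0.00713), and Pbld1 at 23.2, 36.2 and 47.2 against 202, 454 and 337 (−3.21 ± 0.40, adjusted p = 0.00422).

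The other genes of this kind rested on few libraries. Prom2 had counts in 5-FU replicate 2 alone of the 5-FU libraries (0, 25.9 and 0 against 214, 245 and 288), so that without that library the 5-FU group held no count, and the call of its log2 fold change of −4.87 ± 1.27 (adjusted p = 0.0394) was lost without 5-FU replicate 1 or 3 or any PBS library (adjusted p up to 0.102). Abat, the GABA transaminase (−4.83 ± 1.01, adjusted p = 0.0199), the ATP receptor P2rx6 (−3.95 ± 0.83, adjusted p = 0.0202) and the growth factor Pdgfc (−3.25 ± 0.90, adjusted p = 0.0472) also rested on 5-FU replicate 2, without which their log2 fold changes were −6.88, −5.65 and −5.22. The calls of Abat and P2rx6 were lost without 5-FU replicate 3 or PBS replicate 1 or 2, and that of Pdgfc without 5-FU replicate 1 or 3 or any PBS library (adjusted p up to 0.0665, 0.0558 and 0.113). Btbd11 (−3.14 ± 0.61, adjusted p = 0.0156) lost its call without 5-FU replicate 2 or PBS replicate 3 (adjusted p up to 0.0535) and in the fit over all 21 libraries (adjusted p = 0.0551).

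Of the genes tested, 21 had no count in any library of one group, and all of them were called, 11 lower and 10 higher after 5-FU. That all were called follows from the filter they passed through the other group. With a floor of 3 counts per library, and named after their values were seen, the erythroid carbonic anhydrase Car1 was at least 64.8-fold lower after 5-FU, the imprinted zinc finger gene Plagl1 at least 51.4-fold and the platelet receptor Clec1b at least 35.5-fold. Car1 was uneven among the PBS libraries, at 132, 386 and 44.2. Among the 10 higher, the largest bounds were 42.1-fold for Pald1 and 41.8-fold for Cd300lf, also named after their values were seen. Floors and bounds cover counting error only.

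Fkbp14 and Gstt1 were among the 6 falls with the smallest p, and the other 4 follow. Zbtb20, a zinc finger repressor, was at 2469.9, 2869.9 and 2699.9 after 5-FU and at 6339.9, 6428 and 6556 after PBS (−1.27 ± 0.08, adjusted p = 0.00125). Pde2a, a phosphodiesterase activated by cGMP, was at 1343, 1732 and 1265 against 7233, 6483 and 6199 (−2.20 ± 0.14, adjusted p = 0.00125), although 64.3% of its exonic bases are shared with the overlapping gene Gm45837. Plek, the protein kinase C substrate of platelets, was at 471, 522 and 509 against 1738, 1942 and 1598 (−1.81 ± 0.10, adjusted p = 0.00125). Tnfsfm13, a readthrough locus that shares 76.7% of its exonic bases with Tnfsf12 and Tnfsf13, had a log2 fold change of −1.41 ± 0.08 (adjusted p = 0.00125).

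**Figure D3:**
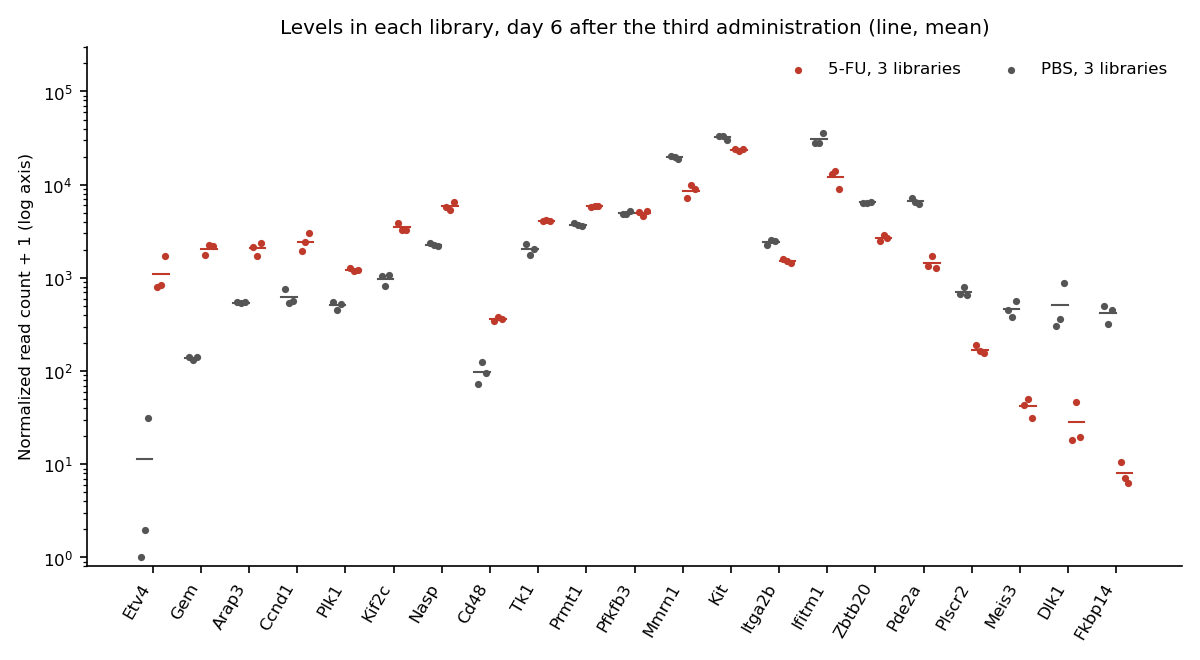
Normalized read counts plus 1 on a log axis for 21 genes in each of the 3 libraries after 5-FU (red) and the 3 after PBS (gray), with a line at each mean. Etv4 rose from 0, 0.988 and 30.6 to 796, 843 and 1695, Fkbp14 fell from 498, 322 and 448 to 9.65, 6.21 and 5.34, and the libraries of Pfkfb3 overlapped between 4821 and 5216.

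HSC surface and regulator genes had a lower summed level. In CPM, which is the count as a share of the library's total on a common scale, their 27 members took 5248 to 5503 CPM of the 5-FU libraries and 7682 to 7911 of the PBS libraries, with 10 called lower, 3 higher and a median of −0.21. Pdzk1ip1, a small membrane protein, was at 4955, 4879.7 and 3604 normalized read counts after 5-FU and at 10186, 10583 and 9994 after PBS (log2 fold change −1.19 ± 0.13, adjusted p = 0.00283). Kit, the stem cell factor receptor and part of the gate that differed between the groups, was at 24409, 22764 and 23992 against 33147, 33214 and 30204 (−0.44 ± 0.07, adjusted p = 0.00701). Cd34 fell by 0.71 on the log2 scale (SE 0.10, adjusted p = 0.00668) and Flt3, which may have been part of the sort, by 1.18 (SE 0.21, adjusted p = 0.012). Runx1 and Hlf, named after their values were seen, had log2 fold changes of −0.53 ± 0.07 and −0.47 ± 0.09 (adjusted p = 0.00535 and 0.0132).

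Some stem cell genes were not called lower. Mecom (EVI1), required for HSC self-renewal and named after its values were seen, was at 14751, 14826 and 16628 against 12339, 11992 and 11984 (0.35 ± 0.07, adjusted p = 0.0186), with its call lost without any PBS library (adjusted p up to 0.0600). Hmga2, a chromatin factor of fetal HSCs, was at 375, 484 and 566 against 262, 178 and 237 (1.08 ± 0.20, adjusted p = 0.0149, and 0.0518 without 5-FU replicate 3). The log2 fold changes of Slamf1 (CD150), Procr (EPCR) and Ly6a (Sca-1) were 0.26 ± 0.12, −0.43 ± 0.18 and 0.23 ± 0.08, none of them called (adjusted p = 0.166, 0.139 and 0.0777). Cd48 was low in all libraries, as the sort requires, but higher after 5-FU, at 343, 379.8 and 359 against 71.5, 124 and 94.0 (1.90 ± 0.23, adjusted p = 0.00374). The groups did not overlap.

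Receptors for adhesion, homing and cytokines went both ways, with 4 of 32 higher, 7 lower and a median of −0.08. In all, 34.4% of the list was called, against 18.1% of all genes tested. The integrin Itgb2 was at 1153, 1152 and 1153 after 5-FU and at 491, 624 and 642 after PBS (0.98 ± 0.11, adjusted p = 0.00369). Il6ra, the interleukin 6 receptor, was at 203, 220.4 and 248 against 715, 509.8 and 604 (−1.44 ± 0.16, adjusted p = 0.00283). Leaving out any single library gave 2 or 3 receptor genes called higher and 4 to 6 called lower. Itgam encodes the Mac-1 antigen left out of the antibody mixture for the 5-FU group, and 68.7% of its exonic bases are shared with the overlapping gene Gm49368. It was at 501, 349.8 and 234 against 218, 458 and 488 and overlapped between the groups (−0.10 ± 0.37, adjusted p = 0.868).

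Genes of quiescence and imprinted genes fell more often than they rose, with 13 of 30 lower, 3 higher and a median of −0.54. Txnip, which holds back glucose uptake and binds thioredoxin, was at 11310.2, 12789.8 and 11512 after 5-FU and at 21463, 22693 and 21659.8 after PBS (−0.89 ± 0.07, adjusted p = 0.00163). Ltbp3, which stores latent TGF-β in the matrix, was at 745, 766 and 680.1 against 1351, 1286 and 1433 (−0.89 ± 0.09, adjusted p = 0.00248). With any single library left out, 8 to 12 genes of the list were called lower and 0 or 1 higher.

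Genes typical of old HSCs were also called lower more often than higher, with 12 of 29 lower, 3 higher and a median of −0.79. Plscr2, a scramblase gene, was at 188, 161 and 156 after 5-FU and at 667, 790.3 and 647 after PBS (−2.06 ± 0.13, adjusted p = 0.00125), and the caveolae gene Cavin2 at 581, 597 and 516 against 991, 957 and 917 (−0.76 ± 0.09, adjusted p = 0.00381). Lmna, which encodes lamin A/C, and Selp, which encodes P-selectin, went the other way. Lmna was at 1710.3, 2069 and 2556 against 523, 800.2 and 586 (1.73 ± 0.20, adjusted p = 0.00371) and Selp at 1844, 1827 and 1679 against 754, 1004 and 1075 (0.92 ± 0.14, adjusted p = 0.007). With any single library left out, 5 to 12 genes of this list were called lower and 3 higher.

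Megakaryocyte and platelet genes, many of which HSCs with a platelet bias also express, summed to 2336 to 2623 CPM after 5-FU and to 3610 to 3860 CPM after PBS, with 12 of 24 lower, 1 higher and a median of −0.39. Mmrn1 (multimerin) was at 7118, 9804 and 8949.8 normalized read counts against 20333, 19963 and 18796 (−1.19 ± 0.12, adjusted p = 0.00265) and Itga2b (CD41) at 1599, 1504 and 1438 against 2234, 2529 and 2484 (−0.67 ± 0.09, adjusted p = 0.00472). Itgb3, named after its values were seen, fell by 1.54 (SE 0.22, adjusted p = 0.00586). The platelet genes Vwf and Pf4, named in the same way, were not called, at 2313, 2131 and 2201 against 1934, 1801 and 1873 (0.24 ± 0.08, adjusted p = 0.0686) and at 341, 323 and 294 against 329.8, 349 and 326 (−0.07 ± 0.11, adjusted p = 0.711). Between 7 and 11 genes of the list were called lower with any single library left out.

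Interferon-stimulated genes fell or did not pass. Of 48 tested, 16 were lower and none higher, at a median of −0.26, and 9 to 11 were called with any single library left out. Ifitm1, an antiviral membrane protein that HSCs express at a high level, was at 13037, 14029 and 8887 after 5-FU and at 28139, 28284 and 35399.9 after PBS (−1.35 ± 0.18, adjusted p = 0.0053). Rsad2 (viperin) was at 249.99, 274 and 256 against 497, 552 and 547 (−1.03 ± 0.10, adjusted p = 0.00265), and Ifi44 at 632, 623 and 431 against 1446, 2221 and 1523 (−1.62 ± 0.22, adjusted p = 0.00517). Stat2 and Irf7, transducers of the type I interferon signal named after their values were seen, fell by 0.66 (SE 0.12) and 0.76 (SE 0.15), with adjusted p of 0.0138 and 0.0159. The antiviral modifier Isg15, named in the same way, overlapped between the groups (−0.53 ± 0.32, adjusted p = 0.296). Genes of antigen presentation had 4 of 22 lower, none higher and a median of −0.24, and 0 to 5 were called with any single library left out.

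Immediate early and NF-κB genes showed no common direction, with 3 of 29 higher and 3 lower, near the shares over all genes tested, a median of −0.03, and 0 to 3 rises and 0 to 4 falls called with any single library left out. Egr1, an early growth response factor, was at 763, 1078 and 1116 against 488, 637 and 529 (0.84 ± 0.17, adjusted p = 0.0187), and its call was lost without 5-FU replicate 2 or 3 or PBS replicate 1 or 3 (adjusted p up to 0.0641). Nr4a1 was at 209, 651 and 644 against 124, 172 and 168 (1.70 ± 0.42, adjusted p = 0.0334), with 5-FU replicate 1 close to the PBS libraries, and it was called with 5-FU replicate 1 left out but with no other library left out (adjusted p up to 0.104).

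Markers of other cells that a sort of bone marrow could hold were measured beside these groups. Erythroid genes summed to 1128 to 1173 CPM after 5-FU and to 1466 to 1650 CPM after PBS, with 4 of 16 higher and 5 lower. The β-globin genes Hbb-bs and Hbb-bt, near-identical copies, rose by 1.51 ± 0.14 and 1.44 ± 0.14 (adjusted p = 0.00225 and 0.00248), Hbb-bs to 611, 660.3 and 506 from 196, 202 and 227. The transferrin receptor Tfrc, named after its values were seen, rose by 1.06 ± 0.20, while the biliverdin reductase Blvrb and the transporter Mfsd2b had log2 fold changes of −0.57 ± 0.09 and −1.20 ± 0.20. Neutrophil and monocyte genes summed to 119 to 161 CPM against 239 to 311 CPM, with 4 of 17 lower and none higher. The calprotectin subunit S100a9 was at 71.4, 88.0 and 13.4 against 490.0, 622 and 853 (−3.52 ± 0.57, adjusted p = 0.00864) and the receptor Csf3r at 2375, 2179.6 and 1786 against 3870.3, 4470.4 and 4612 (−1.03 ± 0.13, adjusted p = 0.00422). The granule gene Mpo, a defining marker named after its values were seen, was at 10.6, 25.9 and 17.8 against 27.6, 71.1 and 71.4.

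Macrophage genes summed to 747 to 1095 CPM against 1334 to 1533 CPM, nearly all of it Apoe, which was at 31916, 27279.9 and 21334 against 41430, 42661 and 36945 normalized read counts (−0.59 ± 0.14, adjusted p = 0.0324, and 0.0578 to 0.0888 without 5-FU replicate 2 or any PBS library). Apoe was the 1 macrophage gene called. Of the 15 tested, 10 had positive log2 fold changes, at a median of 0.55. The groups did not overlap in 4 that were higher and 1 that was lower, which is 5 of 15, against 39.9% of all genes tested. The defining macrophage gene C1qb stood at 45.4, 85.9 and 22.3 against 10.2, 12.8 and 18.1 (1.89 ± 0.70, adjusted p = 0.109). Lymphoid genes summed to 51.4 to 58.1 CPM against 76.6 to 85.2 CPM, and 9 of the 22 had no count in any of the 6 libraries. Of the 6 tested, 2 were called lower (Cd79b and Klrb1c), and 0 or 1 with any single library left out. Mast cell and basophil genes summed to 1.35 to 6.10 CPM against 5.22 to 7.82 CPM with none of 3 called. Stromal and endothelial genes summed to 56.6 to 83.3 CPM against 71.0 to 94.8 CPM, with 2 of 9 higher and 2 lower (2 to 4 and 0 to 2 with any single library left out). Plvap, an endothelial gene, was at 135, 74.5 and 93.5 against 10.2, 17.8 and 13.6 (2.85 ± 0.49, adjusted p = 0.0103), the pericyte gene Pdgfrb at 557, 382 and 181 against 1302, 984 and 1199.9 (−1.64 ± 0.36, adjusted p = 0.0231, and 0.0628 to 0.0682 without 5-FU replicate 2 or PBS replicate 1 or 3), and the stromal chemokine Cxcl12 at 731, 349 and 459 against 0, 0 and 331 (2.24 ± 1.46, adjusted p = 0.332). The value for Cxcl12 rested on PBS replicate 3, without which the PBS group held no count, the fitted log2 fold change was 12.04 and the gene was called (adjusted p = 0.00909). The part of these cells in the changes above was not tested.

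The response to the third injection was set against the response to the first, measured on day 6 in 3 libraries each of HSCs from mice given 5-FU or PBS once. In the deposited table the names of all 6 libraries of the first round, and of no other library, carry a suffix that the sources used here do not explain. For levels set side by side between the rounds, a separate run or batch and the round therefore cannot be told apart. Because the injections were 21 days apart, mice of the third round may also have been older at isolation than those of the first. Age and the round cannot be told apart either. A test of whether the effect of 5-FU depended on the round (an interaction term) called 86 of 13227 genes (0.65%), 45 with a more positive and 41 with a more negative response after the third. Of the 85 tested in both comparisons, 41 had fitted log2 fold changes of opposite sign. Of those with the same sign, 26 were smaller after the third and 18 were larger. These counts use fitted values whether or not a response was called, and some lay near 0 in 1 round. Of the 85, 53 were called after the third injection, and 27 of them were not called after the first. The number was unstable, at 38 without replicate 1 of PBS once and 170 without replicate 2 of 5-FU given 3 times, and it lay between 51 and 68 without each of the other 10 libraries.

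Mitotic genes were among those with a larger response after the third injection. The median log2 fold change of the 55 genes was 0.91 after the third and 0.36 after the first, and 6 of them were called for the interaction. Incenp, a subunit of the chromosomal passenger complex, was at 5755, 5417 and 6819.6 after 5-FU and at 3280.4, 2846 and 3371 after PBS in the third round, on a scale set over the 12 libraries, and at 3821, 3577 and 3636 against 3531, 3684 and 3412 in the first. The groups were apart in the third round and overlapped in the first (log2 fold changes 0.92 and 0.06, interaction 0.87 ± 0.13, adjusted p = 0.017), and the interaction was called with each of the 12 libraries left out. Ndc80, a kinetochore subunit, had log2 fold changes of 0.99 and 0.02 (interaction 0.98 ± 0.15, adjusted p = 0.017, and 0.0517 without replicate 1 of PBS once). For Plk1, Kif11, Nusap1 and Cenpf the interactions were 0.86 ± 0.15, 0.81 ± 0.16, 0.95 ± 0.16 and 0.85 ± 0.16 (adjusted p = 0.0319, 0.0453, 0.0247 and 0.0453), and each lost its call without 8 to 10 of the 12 libraries (adjusted p up to 0.0835, 0.104, 0.0709 and 0.105). These 6 genes were named after their values were seen. No S phase gene was called for the interaction, with medians of 0.60 after the third and 0.38 after the first. Megakaryocyte and platelet genes had 5 of 24 called, with medians of −0.39 after the third and −0.86 after the first. Itga2b and the platelet receptor genes Gp1bb, Gp5 and Treml1, the last 3 named after their values were seen, had less negative responses after the third injection (interactions 1.20 ± 0.15, 2.35 ± 0.44, 1.42 ± 0.24 and 2.00 ± 0.33), and Selp rose less. The interactions of Gp1bb, Gp5 and Treml1 lost their calls without 10, 8 and 3 of the 12 libraries (adjusted p up to 0.0908, 0.0686 and 0.0733), and Gp1bb shares 92.9% of its exonic bases with Gm49601 and Sept5. Erythroid genes had 3 of 16 called (Hbb-bs, Hbb-bt and Mfsd2b).

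**Figure D4:**
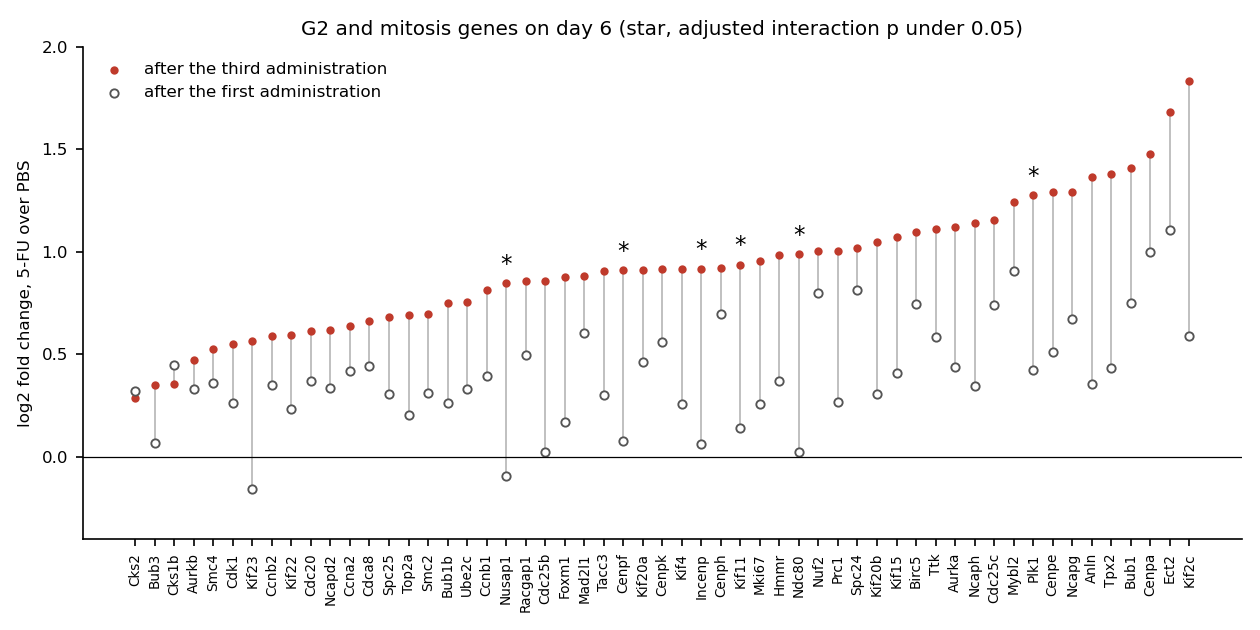
Log2 fold change of 5-FU over PBS on day 6 for the G2 and mitosis genes, after the third injection (filled) and after the first (open), ordered by the former, with a star over the 6 genes called for the interaction. Most filled points lie above their open partners, with medians of 0.91 and 0.36.

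The 10 genes with the smallest interaction p, all at an adjusted p of 0.0149, went in several ways. Ifitm1 fell after the third injection (−1.35) and rose after the first (0.25), an interaction of −1.59 ± 0.21. Its PBS libraries were at 25483, 25611 and 31954 in the third round and at 21443, 20269.9 and 23061 in the first, and its 5-FU libraries at 11824, 12719 and 8064 and at 24978, 25975 and 25578. Neither the PBS libraries nor the 5-FU libraries of the 2 rounds overlapped. Meis3 fell further after the third (−3.51 against −1.61, interaction −1.89 ± 0.26), and this interaction was not called in the fit over all 21 libraries. Itga2b fell less (−0.67 against −1.86, interaction 1.20 ± 0.15), and Nek6, a mitotic kinase, rose less (0.76 against 2.16, interaction −1.39 ± 0.17).

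The serpin genes Serpina3f and Serpina3i, close copies of each other, rose after the first injection (1.13 and 0.83) and had log2 fold changes of −0.01 and −0.02 after the third. In both, the PBS libraries of the third round were above those of the first, at 2427, 2227 and 2457 against 1919, 2091 and 1943 for Serpina3f. Slc22a3, a cation transporter, and Slc14a1, a urea transporter, fell after the first (−0.72 and −0.73) and had log2 fold changes of 0.19 and 0.28 after the third, neither called. Fyb, an adaptor protein of hematopoietic cells, and Tuba8, a tubulin, fell after the first (−0.46 and −0.39) and rose after the third (0.55 and 0.69), the rise of Fyb being lost without 5-FU replicate 3 (adjusted p = 0.0514). Cdk6 also fell after the first (−1.02) but was not called after the third (−0.03), with an interaction of 1.00 ± 0.14 (adjusted p = 0.0149).

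Across the 7 groups of the series, the leading genes of the third round fell into different patterns, given here as CPM scaled over all 21 libraries and without a test. Etv4 was at 25.4 to 53.9 CPM in the group given 5-FU 3 times, at 12.8 to 15.6 after a single 5-FU on day 6, and at or below 2.80 in the other 5 groups. Gem was at 55.4 to 71.9 CPM and at 79.5 to 83.0 after a single 5-FU, against 4.13 to 4.44 in the PBS group, and on day 21 it stood at 14.2 to 17.7 after 1 injection and at 20.9 to 21.9 after 3. Plk1 was at 37.7 to 40.7 CPM, above all other groups, the next being the single 5-FU group at 18.7 to 24.7. Zbtb20, at 78.7 to 91.8 CPM, and Mmrn1, at 227 to 314 CPM, were low in both 5-FU groups on day 6. On day 21 after the third 5-FU, Zbtb20 was at 215 to 254 CPM, above the 199.7 to 206 of the PBS group, whereas Mmrn1 was at 389 to 438 CPM, below the 590 to 640 of the PBS group.

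Some of the largest falls coincided with high levels in the PBS group of the third round. Fkbp14 was at 10.1 to 15.7 CPM there, at 3.37 to 10.4 in the PBS group of the first round and at 0 to 13.1 over the groups other than the pair compared. Dlk1 was at 9.49 to 27.5 CPM against 5.19 to 7.02 in the PBS group of the first round, and Plscr2 at 20.3 to 24.8 against 5.97 to 6.29. Plscr2 was highest in old untreated mice, at 100.2 to 102 CPM. The old libraries held 0 counts of Y-linked genes and every other library 4747 to 9705. Age and sex therefore cannot be told apart in levels set against the old mice. The limits of batch and age between the rounds, given above, hold for the PBS groups here. Meis3 differed from Fkbp14, Dlk1 and Plscr2, at 11.9 to 17.7 CPM in the PBS group of the third round and 16.1 to 17.4 in that of the first.

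**Figure D5:**
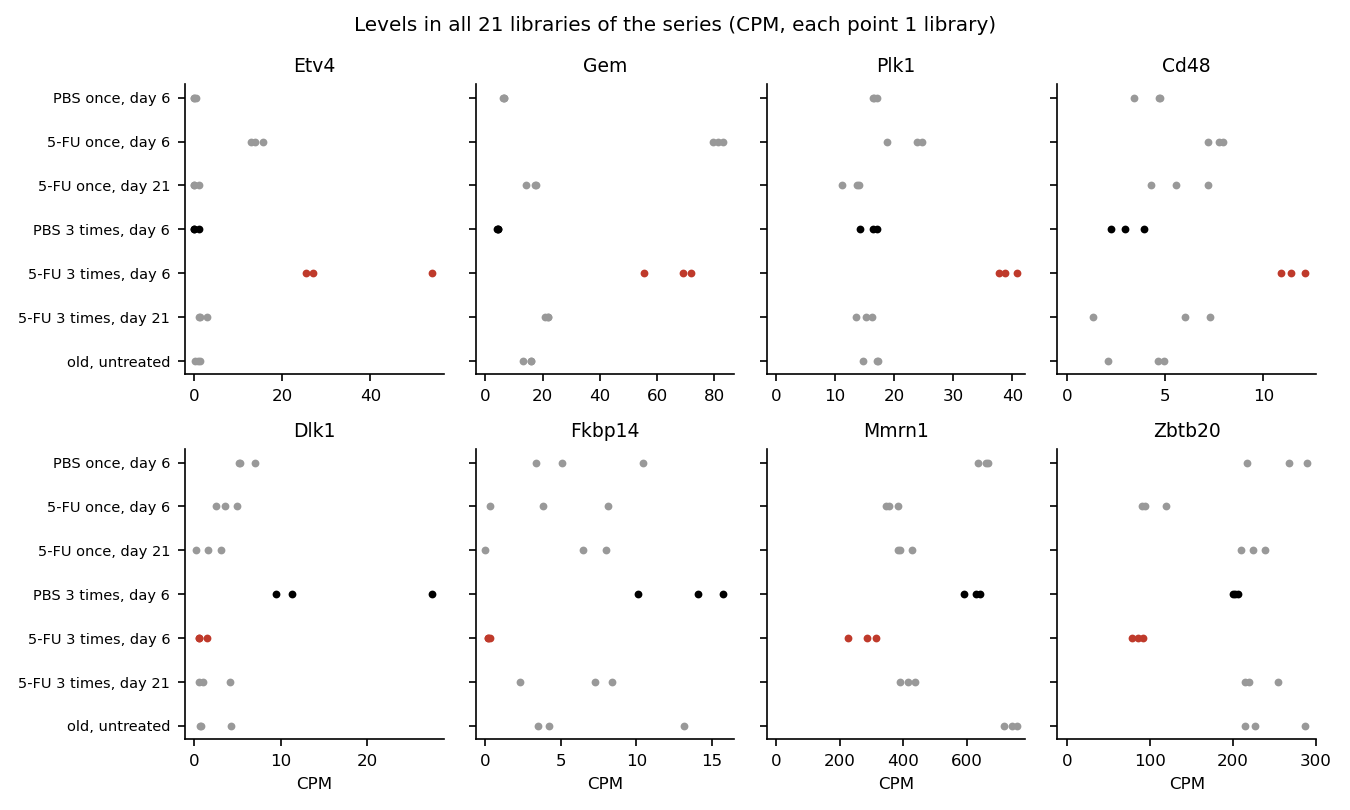
Levels of 8 genes in all 21 libraries as CPM scaled over the series, 1 point per library and 1 row per group, with the third 5-FU in red and the third PBS in black. Plk1 and Cd48 are highest after the third 5-FU, Etv4 and Gem are high after both the first and the third, and Dlk1 and Fkbp14 stand at 9.49 to 27.5 and 10.1 to 15.7 CPM after the third PBS.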

How the data were processed

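RNA was amplified from sorted HSCs and sequenced, and the authors deposited a table of read counts per gene for all 21 libraries. The submitters' processing notes name TopHat2 2.0.13, Cufflinks 2.2.1, Cuffdiff and the mouse build mm10. The counting program and its strand setting are not given in the sources used here. No column of the count table was left out for want of a label. The 6 libraries compared held 27023725 to 38649033 counts, so a floor of 3 counts lies near 0.1 CPM. Floors and bounds cover counting error only. Each standard error is the size of the log2 fold change over the square root of the quasi-likelihood F statistic, which includes spread between libraries. The fitted log2 fold change holds a prior count, so for genes near 0 in 1 group this standard error is approximate. Genes were filtered with edgeR's filterByExpr, scaled by TMM and tested with the quasi-likelihood test (edgeR 4.0.16, limma 3.58.1, R 4.3.3), with Benjamini-Hochberg adjustment over all genes tested. The interaction was fitted on 12 libraries. DESeq2 1.42.0, other scalings, filters, a replicate block, a fit on 21 libraries and leaving out each library served as alternatives. The scripts were tested on simulated data. Gene positions are from GENCODE vM21 and promoters from RefSeq (GRCm38.p6).

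The members and lists were chosen with earlier results of these data known. Genes were named by a rule: the 12 largest rises and 12 largest falls among called genes with at least 100 normalized read counts and groups that did not overlap, up to 2 called genes of each list and direction with the smallest p, the 6 smallest p in each direction, a panel on glycolysis, the sort, the cell cycle and 5-FU, and the 10 smallest interaction p. Some genes that the list rule gave are left in the list counts because their calls were lost with single libraries left out, and genes outside the rule are marked in the text. Some genes that the rule gave are not reported here.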

Additional observations from a re-analysis of the deposited data

Results flagged for a closer look

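The responses to 5-FU differed between the third and the first injection for 86 genes by the test of the interaction (edgeR's quasi-likelihood test over 12 libraries, adjusted p under 0.05). The interactions below are log2 differences, with negative values where the response was lower after the third injection. Larger rises after the third injection were seen in the mitotic genes Ndc80 (0.98), Nusap1 (0.95), Incenp (0.87), Plk1 (0.86), Cenpf (0.85) and Kif11 (0.81), and in Arap3 (1.34), a GTPase-activating protein. Falls after the first injection that were smaller, turned or not called after the third were seen in Mfsd2b (3.12), Gp1bb (2.35), Treml1 (2.00), Gp5 (1.42), Itga2b (1.20), Tuba8 (1.09), Slc14a1 (1.02), Fyb (1.02), Cdk6 (1.00) and Slc22a3 (0.93).

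Rises after the first injection that were smaller, or not called, after the third were seen in the mitotic kinase gene Nek6 (−1.39), the globin genes Hbb-bs (−1.33) and Hbb-bt (−1.24), Serpina3f (−1.13), Selp (−1.11), Serpina3i (−0.83) and Ly6a (−0.77). Falls that were larger, or present after the third and not called after the first, were seen in Plagl1 (−7.75, a fitted value that depends on the prior count, since the third 5-FU libraries held no count), Dlk1 (−3.56), Meis3 (−1.89), Pde2a (−1.12) and Cd63 (−0.55). Ifitm1 (−1.59) fell after the third injection and rose after the first. Mgst1 (−1.09) had log2 fold changes of −0.61 after the third and 0.50 after the first, but its call in the third round was lost without 5-FU replicate 2 or any PBS library (adjusted p up to 0.0943) and with the replicate block (0.0647), and its interaction was lost without 8 of the 12 libraries (adjusted p up to 0.0944). Of these 31 interactions, 14 were called with each of the 12 libraries left out in turn, and 17 lost the call without at least 1 of them. Technical and biological sources of these differences were not tested.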

How the results depend on the processing

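Counts of called genes moved with the test. DESeq2 called 1632 genes lower and 715 interactions, and library size alone called 807 genes higher, where the main fit called 1057, 86 and 1253. With any single library left out, 1231 to 1582 genes were called, 675 to 861 of them higher and 556 to 721 lower, and 38 to 170 interactions. Of 182 named genes called, 44 lost the call without at least 1 library.

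With the replicate number as a replicate block, 1509 genes were called (805 higher, 704 lower) and 55 interactions. Deviations of libraries with the same number correlated at 0.00143 on average, and the labels do not say whether a number marks a shared experiment. Under the block the calls of Mecom, Mgst1, Prom2, Cd79b and Klrb1c were lost (adjusted p = 0.0530, 0.0647, 0.0517, 0.0572 and 0.0893). That of Prom2 was also lost by DESeq2 (0.0808), and that of Pfkp with library size alone (0.0552).

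Genes near 0 that were not called changed sign. With any single library left out, the log2 fold change ran from −0.0963 to 0.0537 for Cdk6, from −0.408 to 0.136 for Itgam, from −0.0467 to 0.0456 for Pfkfb3, from −0.322 to 0.0198 for Pfkm, from −0.0535 to 0.0236 for Serpina3f and from −0.0525 to 0.0190 for Serpina3i. In the fit over 21 libraries it was 0.0112 for Pfkfb3, 0.0109 for Serpina3f and 0.00569 for Serpina3i, and with library size alone it was −0.0202 for Pfkfb4. Medians of the p53, BCL2 and glutathione lists (0.03 each) and of the pentose phosphate list (0.10) turned to −0.07 each and −0.01 with library size alone. The cause was not tested.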
